A study of Saccharomyces cerevisiae with 50 samples.

Results

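The 275 nuclear tRNA genes of budding yeast, of 6431 nuclear genes in the RefSeq annotation of the R64 assembly, were examined for the binding of 6 transcription factors. All genes annotated as tRNA on the nuclear chromosomes were taken, and a tRNA gene was counted as bound in an IP when a deposited peak overlapped the gene itself by at least 1 bp. The study measured the binding of Gcn4p, Rtg3p, Nrg1p, Sut1p, Swi4p and Swi6p by ChIP-seq in a wild-type strain and in a strain that lacked the gene of a cofactor. It asked how far each factor depends on its partner for where it binds. There were 50 samples, of which 30 were IPs with 1 peak list each and 20 were INPUT samples that entered only through the peak calls.

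All strains were Saccharomyces cerevisiae W303 (Z1256), in which the factor under study carried a C-terminal myc tag and, in the deletion strains, a kanamycin resistance marker replaced the cofactor. Gcn4p was profiled in wild type and rtg3Δ and Rtg3p in wild type and gcn4Δ, with 3 IPs a strain, in rich medium (YPD) with 100 nM rapamycin for 20 min. Nrg1p in wild type and sut1Δ and Sut1p in wild type and nrg1Δ also had 3 IPs a strain, in YPD without drug. Swi4p in wild type and swi6Δ, in YPD, had 1 IP a strain. Swi6p in wild type and swi4Δ had 2 IPs a strain, and the sources used here do not give the growth of those cultures. A wild-type culture was divided before the IPs, so wild-type replicates shared a culture, and a difference between strains cannot be told apart from a difference between cultures. The paper's methods state that the deletion strains were grown as separate cultures. A wild-type SD is thus a spread between IPs of the same culture. A deletion SD also holds differences between cultures, so the SDs are not like quantities.

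tRNA genes are transcribed by RNA polymerase III from promoters inside the gene, where TFIIIC binds and places TFIIIB upstream of the start. Each amino acid is served by a family of tRNA genes scattered over the chromosomes, and many members of a family have the same sequence. The factors profiled here act on genes of RNA polymerase II. Gcn4p activates amino acid biosynthesis genes, Rtg3p the retrograde response from mitochondria, and Nrg1p represses glucose-repressed genes. Sut1p is known for sterol uptake. Swi4p and Swi6p form SBF, in which Swi4p binds DNA and Swi6p is the regulatory subunit, and SBF turns on genes at the start of the cell cycle. The paper states that Swi6p also reaches DNA through other cofactors, among them Mbp1p and Stb1p.

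The annotation placed the tRNA genes on all 16 nuclear chromosomes, with a length of 71 to 133 bp and a median of 73 bp. A symbol that gives the amino acid was present for 47 genes, and the other 228 carried a systematic name only, so their amino acid was not assigned. The distance from a tRNA gene to the nearest start codon of a protein-coding gene had a median of 536 bp and reached 3507 bp. Within 600 bp upstream of a protein-coding gene lay 143 tRNA genes, and 132 lay outside such a promoter. The lists held from 3 peaks in a swi4Δ IP of Swi6p to 1065 in an nrg1Δ IP of Sut1p, with median peak widths of 751 to 2502 bp, so that a peak is far longer than the gene it is set against. The background used throughout was the share of all 165109 windows of 73 bp along the chromosomes that a peak overlapped in the same IP. The number of reads behind a list is unknown. Peaks were called from reads that aligned to 1 place only, so reads that lay wholly within identical tRNA genes would not have been kept.

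Swi6p in the wild-type strain covered more of the tRNA genes than any other factor. Its IP 1 had a peak on 66 of 275 tRNA genes (24%), where 4.47% of all windows were under a peak. Its IP 2 had a peak on 62 (22.5%), against 3.33% of windows. The mean was 23.3% ± 1.03 (SD, n = 2), and the share of tRNA genes was 5.37 and 6.77 times that of windows. Against windows that overlap no protein-coding gene, of which 7.37% and 6.05% were under a peak, tRNA genes still stood higher in both IPs. In the swi4Δ strain IP 1 had no peak on any tRNA gene, with 0.0509% of windows under a peak, and IP 2 had a peak on 1 (0.364%), with 0.212% of windows. The swi4Δ mean was 0.182% ± 0.257 (SD, n = 2), a difference of −23.1 percentage points from wild type (swi4Δ minus wild type), while for windows the difference was −3.77 points. The strains did not overlap on either measure.

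The swi4Δ lists of Swi6p held 3 and 8 peaks, against 228 and 204 in wild type, so the lower count in swi4Δ held for nearly the whole list and not for tRNA genes alone. The study compared enrichment ratios and not peak lists. It found no significant difference between these strains at targets of Swi6p without Swi4p. When each list was cut to its 3 highest peaks, the number in the shortest, no tRNA gene was left under a wild-type peak. With so few peaks a list the strains could not be compared.

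**Figure D1:**
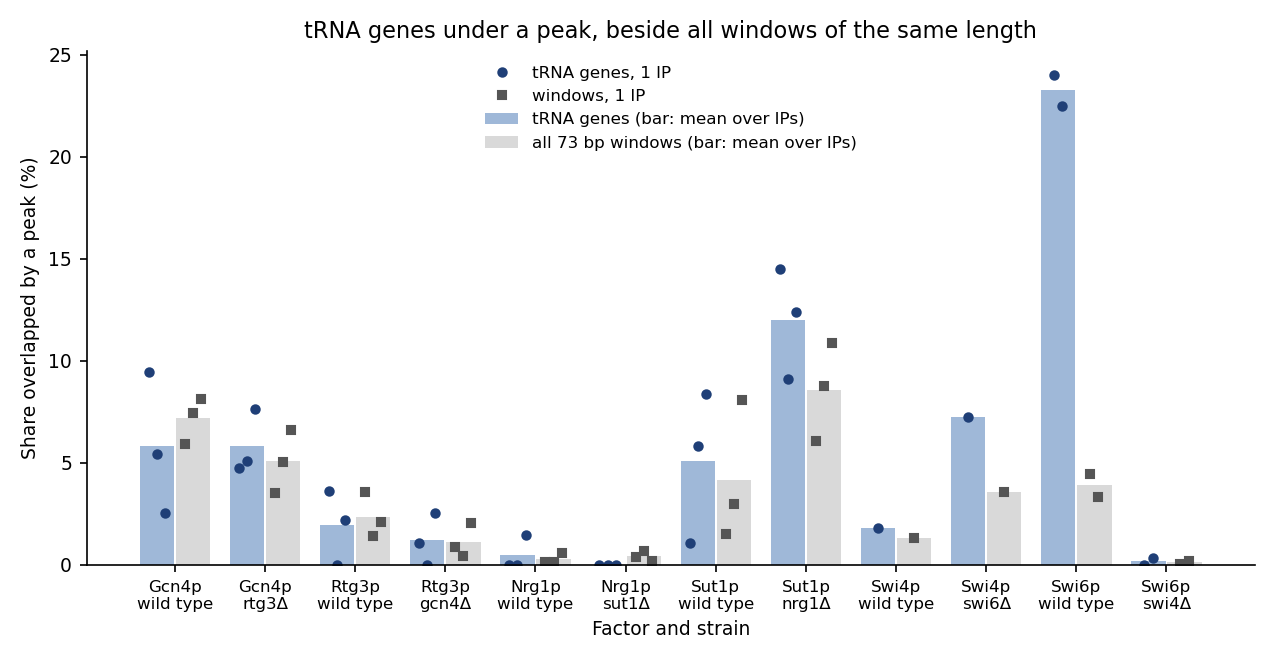
Share of the 275 tRNA genes (blue bars, round points) and of all 73 bp windows (grey bars, square points) overlapped by a peak, in percent, for each factor and strain; bars are means over IPs and each point is 1 IP. Swi6p in wild type stands at 24% and 22.5% of tRNA genes against 4.47% and 3.33% of windows, and at the next highest, Sut1p in nrg1Δ, the means are 12% of tRNA genes and 8.59% of windows.

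The other factors had tRNA shares nearer to their background. Gcn4p, the activator of amino acid biosynthesis, had a peak on 26, 15 and 7 tRNA genes in its wild-type IPs (9.45%, 5.45% and 2.55%), where 5.95%, 7.44% and 8.15% of windows were under a peak. The IP with the most tRNA genes thus had the fewest windows under a peak, and the IP with the fewest tRNA genes had the most. In rtg3Δ the counts were 13, 14 and 21 (4.73%, 5.09% and 7.64%), against 3.54%, 5.05% and 6.61% of windows. Both strains had a mean of 5.82%, with an SD of 3.47 in wild type and 1.59 in rtg3Δ (n = 3 each), and they overlapped.

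Rtg3p had a peak on 10, 0 and 6 tRNA genes in wild type (3.64%, 0% and 2.18%), with 3.55%, 1.41% and 2.1% of windows. In gcn4Δ it had 3, 0 and 7 (1.09%, 0% and 2.55%), with 0.871%, 0.432% and 2.05% of windows. The means, 1.94% ± 1.83 and 1.21% ± 1.28 (SD, n = 3 each), overlapped. Nrg1p had a peak on 0, 0 and 4 tRNA genes in wild type, the last being 1.45%, with 0.128%, 0.142% and 0.572% of windows. In sut1Δ it had none in any of the 3 IPs, where windows stood at 0.399%, 0.695% and 0.211%. The Nrg1p lists were short, with 9 to 49 peaks, so few tRNA genes could be counted in them.

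Sut1p had a peak on 3, 16 and 23 tRNA genes in wild type (1.09%, 5.82% and 8.36%), with 1.5%, 2.97% and 8.06% of windows. In nrg1Δ it had 40, 25 and 34 (14.5%, 9.09% and 12.4%), with 6.08%, 8.78% and 10.9% of windows. The mean was 5.09% ± 3.69 in wild type and 12% ± 2.75 in nrg1Δ (SD, n = 3 each), 6.91 percentage points higher, and the strains did not overlap. For windows the difference was 4.41 points and the strains overlapped, and with the same number of peaks taken from every list the change at tRNA genes came to 0.97 points. Windows outside protein-coding genes were under a Sut1p peak in 10.6%, 13.6% and 14.8% in nrg1Δ, so that tRNA genes were higher than these in IP 1 and lower in IP 2 and IP 3. In wild type these windows had a mean of 6.92%, above the tRNA mean.

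Swi4p, the DNA-binding partner of Swi6p, had a peak on 5 tRNA genes in wild type (1.82%), with 1.34% of windows, and on 20 in swi6Δ (7.27%), with 3.57% of windows. With 1 IP a strain this difference of 5.45 percentage points has no replicate check. Its lists held 73 and 182 peaks, and with 73 peaks taken from each the difference was 0.

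For a single gene, a peak throughout the IPs of a strain and nowhere in the other strain gives an exact two-sided permutation p of 0.1 with 3 IPs against 3 and 0.333 with 2 against 2. These are the smallest values the design allows, so no tRNA gene could pass 0.05 and the genes below are given by their counts.

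The tRNA genes under Swi6p were largely shared between its wild-type IPs. A peak in either IP was found at 81 genes (windows 5.23%), and 47 genes had a peak in both, which is 71.2% of those in IP 1 and 75.8% of those in IP 2. Of all windows, 2.56% were under a peak in both. Among the genes with a peak in either IP 58% had it in both, and among such windows 49% did. All 47 genes were without a Swi6p peak in both swi4Δ IPs, a pattern that 2.54% of windows showed. Scores of the peaks at the 47 genes ran from 52.34 to 2644 in IP 1, with a median of 126.8, and from 50.56 to 1827 in IP 2, with a median of 95.96. The MACS score is the log10 of the peak's p-value times a negative constant, so that a higher score is a stronger call, and the lists begin at 50. The same score of 3100 recurs as the highest at tRNA genes in lists of Gcn4p in rtg3Δ and Swi4p in swi6Δ. Whether it marks a limit of the scale is not known, and the highest score of any peak was 3227. The 34 genes with a peak in 1 IP only had scores of 51.5 to 227.2 with a median of 70.69, so that they lay nearer to the threshold.

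Peaks that touched tRNA genes made up 59 of the 228 Swi6p peaks in IP 1 (25.9%) and 54 of 204 in IP 2 (26.5%). They were weaker than the rest of the list. Their median score was 110 against 173 for the other peaks in IP 1, and 85.1 against 137 in IP 2. A score under 100 was held by 28 of the 66 genes in IP 1 and by 37 of the 62 in IP 2.

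The position of the Swi6p peaks was then compared with the tRNA gene and with the nearest protein-coding start. The midpoint of the touching peaks was a median of 300 bp from the centre of the tRNA gene in IP 1 and 82.2 bp in IP 2. It was closer to the tRNA gene than to any start codon for 66.1% of these peaks in IP 1 and 79.6% in IP 2. Peaks chosen for touching a tRNA gene lie near it by that choice, and for Sut1p in nrg1Δ the same share was 66.7%, 64% and 59.4%, with midpoints a median of 381, 414 and 430 bp from the gene. Every one of the 66 and 62 genes was covered from end to end. At the tRNA gene's start 23.3% of the genes were under a Swi6p peak, and the share was the same at every step from 350 bp upstream to 450 bp downstream. It was 5.09% at 1000 bp upstream, 9.45% at 1000 bp downstream, 6.36% at 3000 bp upstream and 3.64% at 3000 bp downstream. For all protein-coding genes the share at the start was 4.71% and its highest value within 3000 bp was 5.08%.

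For Gcn4p and Sut1p the share was highest away from the tRNA gene. Gcn4p in wild type covered 4.61% of tRNA starts and 8% of positions 850 bp downstream of them. Sut1p in nrg1Δ covered 11.2% of tRNA starts and reached 13.3% upstream of them. Swi4p in swi6Δ was highest at the start, with 7.27% there, 1.82% at 1000 bp upstream and 5.82% at 1000 bp downstream, from 1 IP.

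**Figure D2:**
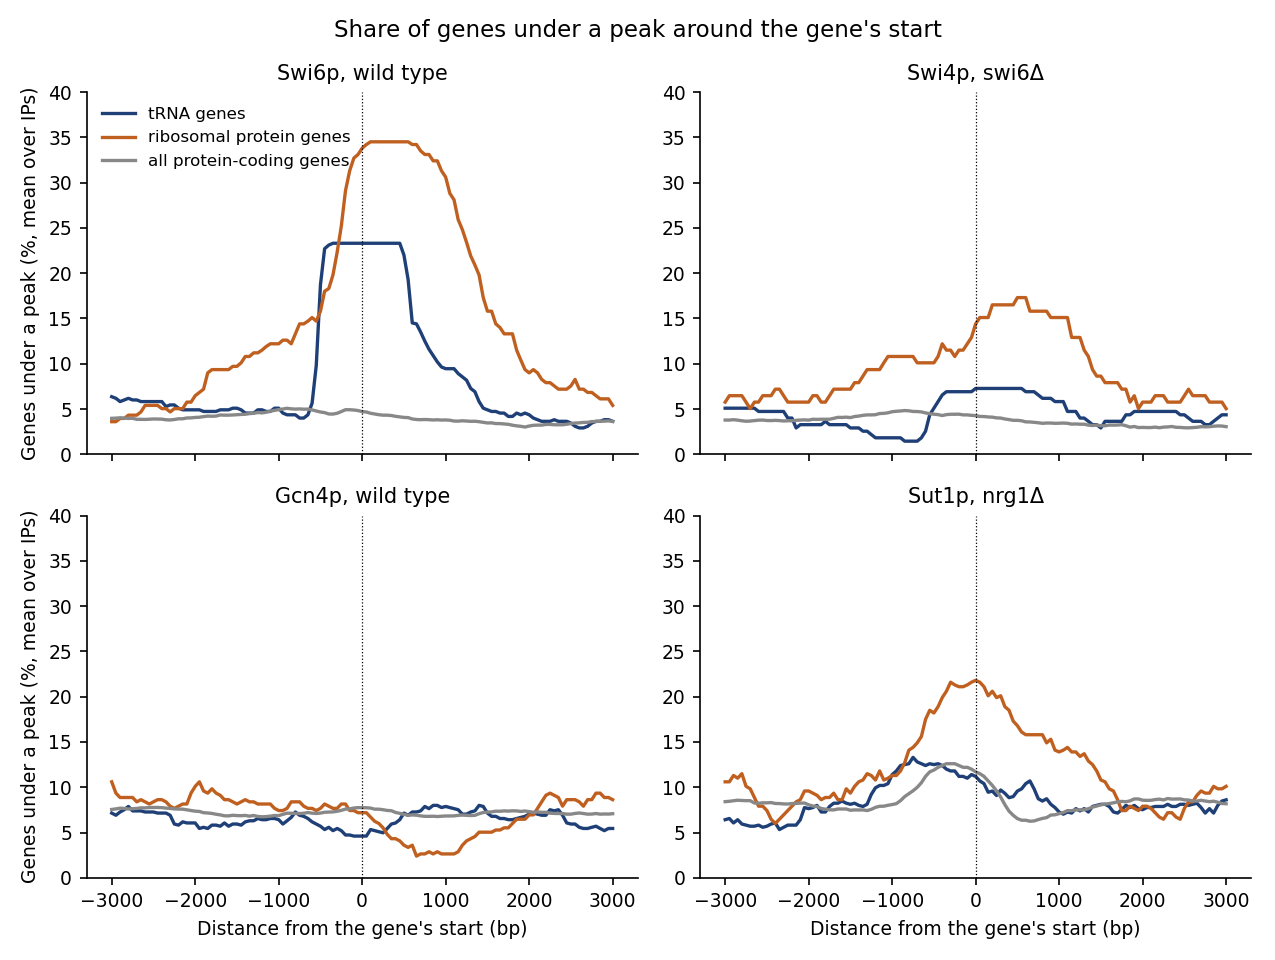
Share of genes under a peak, in percent and averaged over IPs, at each distance from the gene's start (bp, upstream negative), for tRNA genes (blue), cytoplasmic ribosomal protein genes (orange) and all protein-coding genes (grey), in 4 of the factor and strain pairs. Under Swi6p in wild type the tRNA line has a plateau of 23.3% around the start and 5.09% at 1000 bp upstream, while the Gcn4p line is at 4.61% at the start and 6.42% at 1000 bp upstream.

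The 47 genes, all covered by their peaks from end to end, were split by how far the peak's midpoint lay from the gene. This split was made after the values were seen. In 23 genes the midpoint of the Swi6p peak lay within 250 bp of the gene's centre in both IPs, in 9 in 1 IP, and in 15 in neither. The 23 had median scores of 113.9 in IP 1 and 83.04 in IP 2, and the 15 had medians of 150.4 and 162.2. A Swi4p peak in swi6Δ was present at 2 of the 23 and at 8 of the 15. These are counts of genes and not of separate peaks, and the medians also count a shared peak once for each gene. The 2 were YNCG0028W and YNCG0029C, under 1 Swi6p peak. Among the 8, YNCB0015W and YNCB0016W shared 1 peak, and YNCG0041W and YNCG0042C shared another.

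The tRNA gene with the highest Swi6p score was SUP61 (chromosome III, 227942 to 228042), the only gene for the serine tRNA that reads UCG codons. It scored 2644 and 1827 in the Swi6p wild-type IPs, 2452 for Swi4p in wild type and 3100 for Swi4p in swi6Δ, and it had no peak in the other 26 lists. The midpoint of the Swi6p peak was 1210 and 1230 bp from the centre of SUP61, whose nearest start codon is that of BUD31. YNCE0010W (chromosome V, 138666 to 138737), 1026 bp from the start of GCN4, scored 1243 and 728.6 for Swi6p and 149.8 for Swi4p in swi6Δ. YNCG0041W (chromosome VII, 876394 to 876466) and YNCG0042C (chromosome VII, 878710 to 878815) lay under 1 peak, which scored 1092 and 660.6 for Swi6p, 975.2 for Swi4p in wild type and 807.6 for Swi4p in swi6Δ. Its midpoint was 1250 bp from the centre of YNCG0041W and 1080 bp from that of YNCG0042C, and the start codon nearest to YNCG0042C was that of CRH1, a cell wall transglycosidase. YNCL0040W (chromosome XII, 793918 to 793989) scored 1013 in IP 1 and 162.6 in IP 2. The 5 tRNA genes with the highest mean Swi6p score thus all had a peak whose midpoint lay more than 250 bp away.

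Among the genes with a centred peak, YNCG0030C on chromosome VII had the highest scores, 558.1 and 543.5, with midpoints 138 and 164 bp from the gene's centre. HSX1 (chromosome X, 538555 to 538626), the sole gene of an arginine tRNA, scored 219.3 and 117, and the midpoint was 12 and 0 bp from its centre. EMT3, for elongator methionine tRNA, scored 66.86 and 51.47 with midpoints at 8 and 15 bp. These genes were chosen after their values were seen, to show a centred peak at high, middle and low score.

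**Figure D3:**
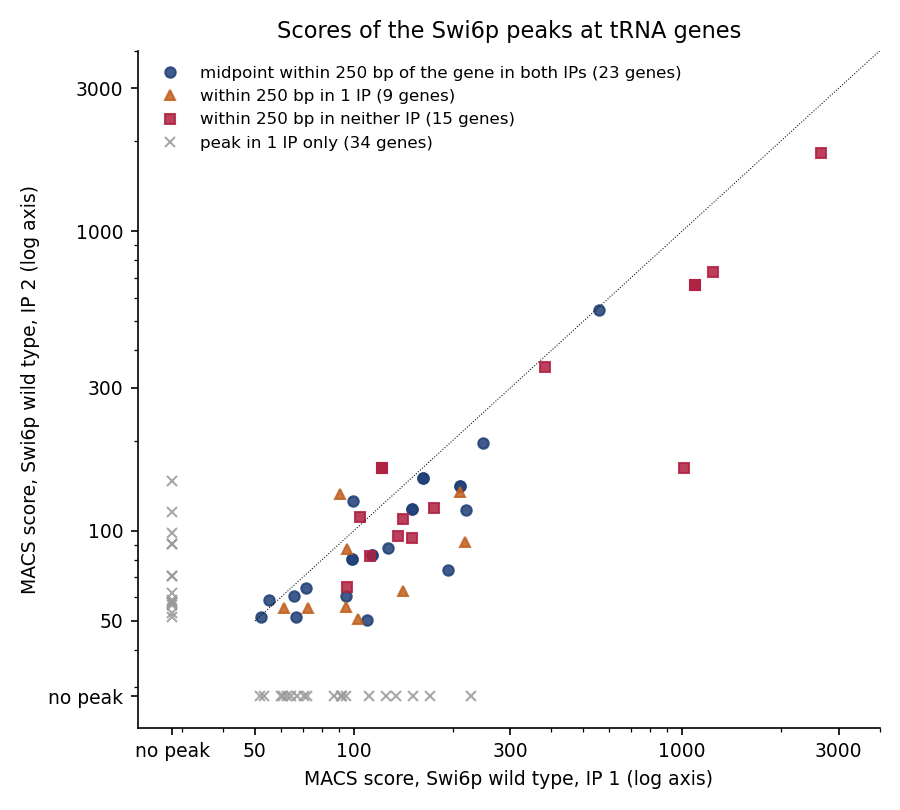
MACS score of the Swi6p peak in wild-type IP 1 (x axis) and IP 2 (y axis), both logarithmic, for the 81 tRNA genes with a peak in either IP; symbols give whether the peak's midpoint lay within 250 bp of the gene in both IPs (23 genes), 1 IP (9) or neither (15), and crosses are the 34 genes with a peak in 1 IP only. The highest scores belong to genes whose peak is not centred on them, up to 2644 and 1827 for SUP61, and genes with a peak in 1 IP only reach 227.2.

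Swi6p peaks were found on tRNA genes near to protein-coding promoters and far from them. Of the 143 tRNA genes inside a 600 bp promoter, 30 had a peak in each wild-type IP, which is 21%. Of the 132 outside, 36 and 32 had one, a mean of 25.8% ± 2.14 (SD, n = 2). By distance to the nearest start codon, 11 and 14 of the 72 genes under 300 bp had a Swi6p peak in IP 1 and IP 2, 20 and 17 of the 75 genes at 300 to under 600 bp, 21 and 14 of the 54 at 600 to under 1000 bp, and 14 and 17 of the 74 at 1000 bp or more. In both IPs the share was lowest in the nearest class and highest at 600 to under 1000 bp. Gcn4p showed another order in wild type. Its counts in the 3 IPs were 9, 4 and 2 of the 72 nearest genes, 8, 7 and 3 of the next 75, 6, 3 and 2 of the 54, and 3, 1 and 0 of the 74 farthest. The farthest class thus had the lowest count in every wild-type IP of Gcn4p, and in rtg3Δ it had 1, 0 and 2. No share of windows was computed inside promoters or by distance to a start codon. Whether these orders are particular to tRNA genes was therefore not tested.

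Paired tRNA genes were nearly all under a Swi6p peak, a split that was added after the values were seen. The 16 tRNA genes with another tRNA gene within 1000 bp form 8 pairs, and 12 of the 16 had a peak in IP 1 and 15 in IP 2, a mean of 84.4% ± 13.3 (SD, n = 2). Among the other 259 genes 54 and 47 had one, a mean of 19.5% ± 1.91 (SD, n = 2). In 6 of the pairs both genes lay under a single peak in both IPs, among them YNCB0004W with YNCB0005C at 98.96 and 80.42, and YNCJ0013C with YNCJ0014C at 150.9 and 118.3. SUF10, for a proline tRNA, and YNCN0017W shared a peak of 90.66 in IP 2 only. YNCJ0019C had a peak of 53.3 in IP 2, and its neighbour YNCJ0018W had none. Swi4p in swi6Δ had a peak on 4 of the 16 (25%) and on 6.18% of the other 259, from 1 IP. Sut1p had 0, 1 and 2 of the 16 in wild type and 0, 0 and 1 in nrg1Δ. Gcn4p, Rtg3p and Nrg1p had none, and their means over the other 259 genes, at most 6.18%, are so low that a count of 0 of 16 says little. With tRNA genes under 1000 bp apart counted once, the mean for Swi6p in wild type was 21.5%.

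The share varied among chromosomes, but the counts are small and no share of windows was computed for single chromosomes. On chromosome X 9 of 24 tRNA genes had a Swi6p peak in each wild-type IP, and on chromosome VII 13 and 9 of 36. On chromosome X, YNCJ0011W and YNCJ0012W lay under 1 peak, and YNCJ0013C and YNCJ0014C under another. On chromosome VI 0 and 1 of 10 had one, and on chromosome VIII 1 of 11 in each. By length, a Swi6p peak was on 47 and 48 of the 192 genes of up to 75 bp and on 19 and 14 of the 83 longer genes, a class that includes genes with introns and those of the serine and leucine tRNAs, which have a long variable arm.

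**Figure D4:**
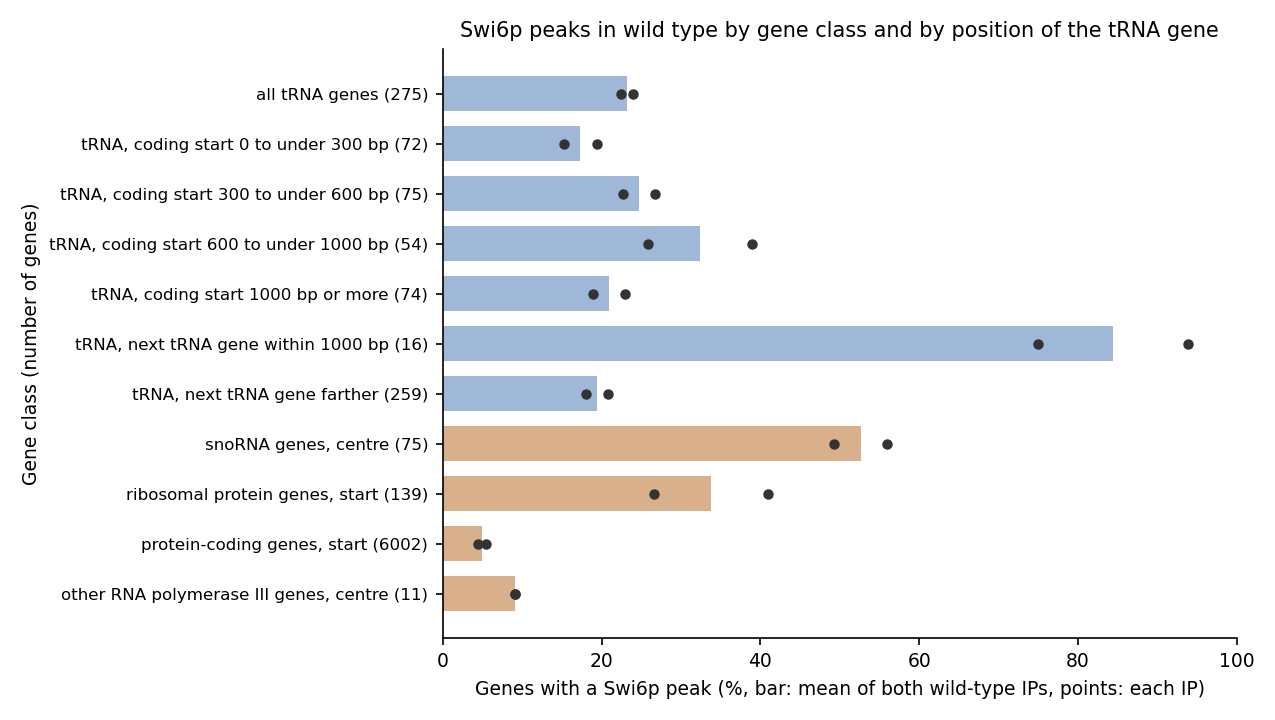
Share of genes with a Swi6p peak in wild type (percent, bars are the mean of both IPs and points the IPs) for tRNA genes by distance to the nearest coding start and to the next tRNA gene (blue), and for other gene classes (brown), with the number of genes in parentheses. Paired tRNA genes stand at 84.4%, all tRNA genes at 23.3%, snoRNA genes at 52.7% and protein-coding starts at 4.97%.

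The 47 tRNA genes with a symbol spread over 12 kinds of tRNA. Elongator methionine tRNA, which serves internal methionine codons, had 3 of its 5 genes (EMT1, EMT2 and EMT3) under Swi6p in both IPs of wild type. Serine had 3 and 1 of 4 genes, leucine 2 and 1 of 4, and arginine 2 and 1 of 2. Proline had 2 and 3 of 7 and glycine 1 and 3 of 9. Tyrosine, whose 8 genes are known as nonsense suppressor loci, had 1 in each IP, and that gene was SUP3. Among the 228 genes with no symbol 51 and 48 had a Swi6p peak. With families this small, the difference of a single gene moves a share widely.

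The initiator methionine tRNA, which starts every protein, has 4 genes. IMT4 (chromosome V, 100133 to 100204) had Swi6p peaks of 194 and 74.22 in wild type, and IMT1, IMT2 and IMT3 had no peak in any of the 30 lists. Among genes that are the sole copy for their anticodon, TRT2, for a threonine tRNA, also had none. TRR4, for an arginine tRNA, scored 134.1 for Swi6p in IP 1, 130.2 for Sut1p in a wild-type IP and 113.8 for Sut1p in an nrg1Δ IP. CDC65, for a glutamine tRNA, had Gcn4p peaks of 291.1 and 115.9 in wild type and of 170.7 and 256.6 in rtg3Δ, and no peak of any other factor. Tyrosine genes were under Sut1p peaks in nrg1Δ, with 4, 2 and 2 of the 8, against 0, 1 and 3 in wild type.

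Swi4p and Swi6p shared tRNA genes. All 5 tRNA genes under a Swi4p peak in wild type had a Swi6p peak in at least 1 wild-type IP, and 4 had it in both. They were SUP61, YNCG0041W, YNCG0042C, SUP3 and YNCG0036W. These 5 are 6.17% of the 81 genes of Swi6p. Of the windows under a Swi4p peak 81.3% were also under a Swi6p peak, and of the windows under a Swi6p peak 20.8% were also under Swi4p, a larger share than at tRNA genes. Of the 20 tRNA genes under Swi4p in swi6Δ, 15 (75%) had a Swi6p peak in wild type, which is 18.5% of the 81, and for windows the same shares were 57.9% and 39.5%. Among the 47 genes with Swi6p in both IPs 13 (27.7%) had a Swi4p peak in swi6Δ, against 58.7% of the windows with Swi6p in both IPs, and among the 194 genes with neither 5 had one. Of all windows 3.57% were under a Swi4p peak in swi6Δ, and windows without Swi6p were not counted apart.

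From wild type to swi6Δ, 4 tRNA genes kept a Swi4p peak, 16 had one in swi6Δ only (windows 2.41%) and 1 in wild type only (windows 0.178%). The 4 are 80% of the wild-type genes, and of the wild-type windows 86.7% kept a peak. The gene with a peak in wild type only was YNCG0036W (chromosome VII, 794417 to 794489), at 96.61. The strongest of the 16 was YNCK0019W (chromosome XI, 517988 to 518060) with 667, followed by TRN1, for a proline tRNA, with 189.2, YNCP0022W, 609 bp from KRE6, with 185, SUF1, for a glycine tRNA, with 166.2, and YNCE0010W with 149.8. SUP3 scored 584 for Swi4p in wild type and 965.7 in swi6Δ, but 95.23 and 87.21 for Swi6p.

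The only tRNA gene under a Swi6p peak in any swi4Δ IP (windows 0.263%) was SUP6 (chromosome VI, 210619 to 210707), a tyrosine tRNA gene 230 bp from the start of PTR3. It scored 265.5 in IP 2, no peak in IP 1, and none in either wild-type IP. SUP6 also had Gcn4p peaks in every rtg3Δ IP, at 1771, 100.5 and 91.02, and in 1 wild-type IP at 51.1, and Sut1p peaks of 409 in wild type and 61.02 in nrg1Δ.

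Gcn4p had a peak in every wild-type IP at 4 tRNA genes, where 2.72% of windows did. They were YNCP0009W, YNCI0003C, YNCD0028W and SUF20. YNCP0009W scored 1165, 1131 and 258.9 in wild type and 3100, 679.8 and 1185 in rtg3Δ. YNCI0003C (chromosome IX, 183440 to 183513) scored 602.6, 345.6 and 82.86 in wild type and 513.7, 193.8 and 741 in rtg3Δ. YNCD0028W (chromosome IV, 1305630 to 1305712), 555 bp from HKR1, scored 286.6, 354 and 79.31 in wild type and had peaks in 2 rtg3Δ IPs. SUF20 (chromosome VI, 162228 to 162298), a glycine tRNA gene 190 bp from GCN20, scored 57.04, 212.8 and 75.74 in wild type. The scores of these genes overlapped between strains wherever both had 3 peaks. In rtg3Δ 3 tRNA genes, YNCP0009W, YNCI0003C and SUP6, had a Gcn4p peak in every IP (windows 1.67%), and no tRNA gene had one throughout a strain and nowhere in the other, as 0.248% of windows did for wild type and 0.0218% for rtg3Δ. A Gcn4p peak in any IP was found at 31 tRNA genes in wild type (windows 12.7%) and at 30 in rtg3Δ (windows 9.53%), 21 of them the same. The 21 are 67.7% of the wild-type genes and 70% of the rtg3Δ genes, and for windows these shares were 47.7% and 63.5%.

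Rtg3p had no tRNA gene with a peak in every IP of either strain, where windows stood at 0.343% in wild type and 0.0727% in gcn4Δ, and none that was in all IPs of a strain and absent from the other (windows 0.134% and 0.0176%). A peak in any IP was at 12 tRNA genes in wild type (windows 5.35%) and 10 in gcn4Δ (windows 2.94%), with 5 shared. The 5 are 41.7% of the wild-type genes and 50% of the gcn4Δ genes, and for windows these shares were 24% and 43.7%. For Nrg1p the 4 genes of wild-type IP 3 were the only ones in its 6 lists, so that any wild-type IP gave 4 genes (windows 0.723%) and any sut1Δ IP none (windows 0.743%). No tRNA gene was in all 3 IPs of wild type (windows 0.0376%) or of sut1Δ (windows 0.174%, and 0.089% with no wild-type peak). They were YNCK0017W at 82.84, YNCP0009W at 83.69, SUP16 at 201.3 and YNCG0008W at 54.01, and all 4 were also among the 36 tRNA genes of Sut1p in wild type (11.1% of those). Of the windows under Nrg1p in wild type 68.6% were also under Sut1p, which is 4.64% of the latter.

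Sut1p had a peak in every nrg1Δ IP at 17 tRNA genes (windows 3.42%) and in every wild-type IP at 1 (windows 0.231%). That 1 was SUP17 (chromosome IX, 248850 to 248931), a serine tRNA gene 454 bp from RGI2, with 433.3, 2033 and 206.6 in wild type and 237.3 in a single nrg1Δ IP. At 8 tRNA genes Sut1p had a peak in every nrg1Δ IP and in no wild-type IP, where 1.45% of windows did, and no tRNA gene showed the opposite (windows 0.0297%). The strongest of the 8 was YNCH0003C (chromosome VIII, 116107 to 116179), 206 bp from TIM10, with 582.5, 346.2 and 306.9. YNCP0007C (chromosome XVI, 435893 to 435964) scored 246.2, 146.9 and 288.5, YNCN0020C 102.7, 155.5 and 422.2, YNCE0021C 188.8, 159.3 and 326.9, and YNCE0008C 141.4, 80.13 and 263.9. Any Sut1p peak was found at 36 tRNA genes in wild type (windows 10.7%) and at 54 in nrg1Δ (windows 15.1%), 25 of them the same. The 25 are 69.4% of the wild-type genes and 46.3% of the nrg1Δ genes, and for windows these shares were 54.4% and 38.6%. Among the wild-type IPs, all 3 genes of IP 1 were found again among the 16 of IP 2, while 1 of the 3 and 3 of the 16 were found again among the 23 of IP 3.

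Over all 30 lists, 146 tRNA genes (53.1%) had a peak in at least 1, where 34.8% of windows did, and 129 had none. A peak in 5 or more lists was found at 27 tRNA genes (9.82%), against 6.89% of windows. In wild type 149 tRNA genes had no factor, 94 had 1, 25 had 2, 3 had 3 and 4 had 4 of the 6 factors, counting a factor with a peak in at least 1 IP. At least 2 factors were thus found at 32 genes (11.6%, windows 7.8%), and Swi6p was among them at 20. At least 3 factors were found at 7 genes (2.55%), close to the 2.13% of windows. The windows here include coding sequence, and shares outside protein-coding genes were not computed for these counts. As a mean over IPs, the share outside protein-coding genes was the higher for every factor and strain but Gcn4p in wild type. For Swi6p in wild type it was 6.71% against 3.9% of all windows.

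The 7 genes with 3 or 4 factors were YNCP0009W, SUP51, YNCK0017W, SUP16, SUP17, SUP3 and YNCG0036W, and Swi6p was among the factors at 5. When a factor was counted only with a peak throughout its wild-type IPs, no gene had 3 factors. In 4 of the 5 Swi6p had its peak in IP 1 only, with scores of 51.83 at YNCP0009W, 53.26 at SUP17, 62.5 at SUP51 and 227.2 at YNCG0036W. SUP3 was the exception, with Swi6p in both IPs.

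YNCP0009W (chromosome XVI, 572269 to 572339), 679 bp from the start of HAA1, was in 11 lists, more than any other tRNA gene. Beside its 6 Gcn4p peaks it had an Nrg1p peak of 83.69 in wild-type IP 3 and Sut1p peaks of 215.2 in wild type and of 281.7 and 671.6 in nrg1Δ. YNCK0017W (chromosome XI, 490968 to 491040) was in 10 lists, with Sut1p at 732.2, 412.2 and 264.7 in nrg1Δ and at 134.9 and 100.5 in wild type, and with single peaks of Gcn4p, Rtg3p and Nrg1p of 53.93 to 207.8. SUP51 (chromosome X, 424432 to 424515), a leucine tRNA gene, was also in 10, with Rtg3p at 197.3 and 100.4 in wild type and 268.3 in gcn4Δ, and Sut1p at 141, 141.9 and 289.7 in nrg1Δ. SUP16 (chromosome XVI, 689565 to 689646), a serine tRNA gene, was in 9, with Gcn4p at 148.1 and 227 in wild type, Nrg1p at 201.3, and Sut1p at 605.4 in wild type and 388.4 and 1203 in nrg1Δ. None of these 4 was among the 47 genes with Swi6p in both IPs.

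The remaining genes of the 10 in the most lists were YNCI0003C with 9, SUP17 with 8, SUP6 and YNCL0044W with 7, and YNCK0019W and YNCE0005W with 6. In total, 8 genes were in 6 lists, and these 2 were taken by the number of factors in either strain and then by mean score. SUP17 had Gcn4p peaks of 1389 in wild type and 3100 and 1037 in rtg3Δ. YNCK0019W had Sut1p at 349.7 and 1905 in wild type, at 57.07 and 86.77 in nrg1Δ, and Gcn4p at 846.7 in an rtg3Δ IP. YNCL0044W (chromosome XII, 797178 to 797249), 181 bp from NUP2, had Gcn4p in 4 lists and Sut1p in 3. YNCE0005W (chromosome V, 86604 to 86685), 252 bp from MCM3, had Sut1p at 440.5, 794.4 and 288.7 in nrg1Δ. None of these 6 was among the 47 either.

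**Figure D5:**
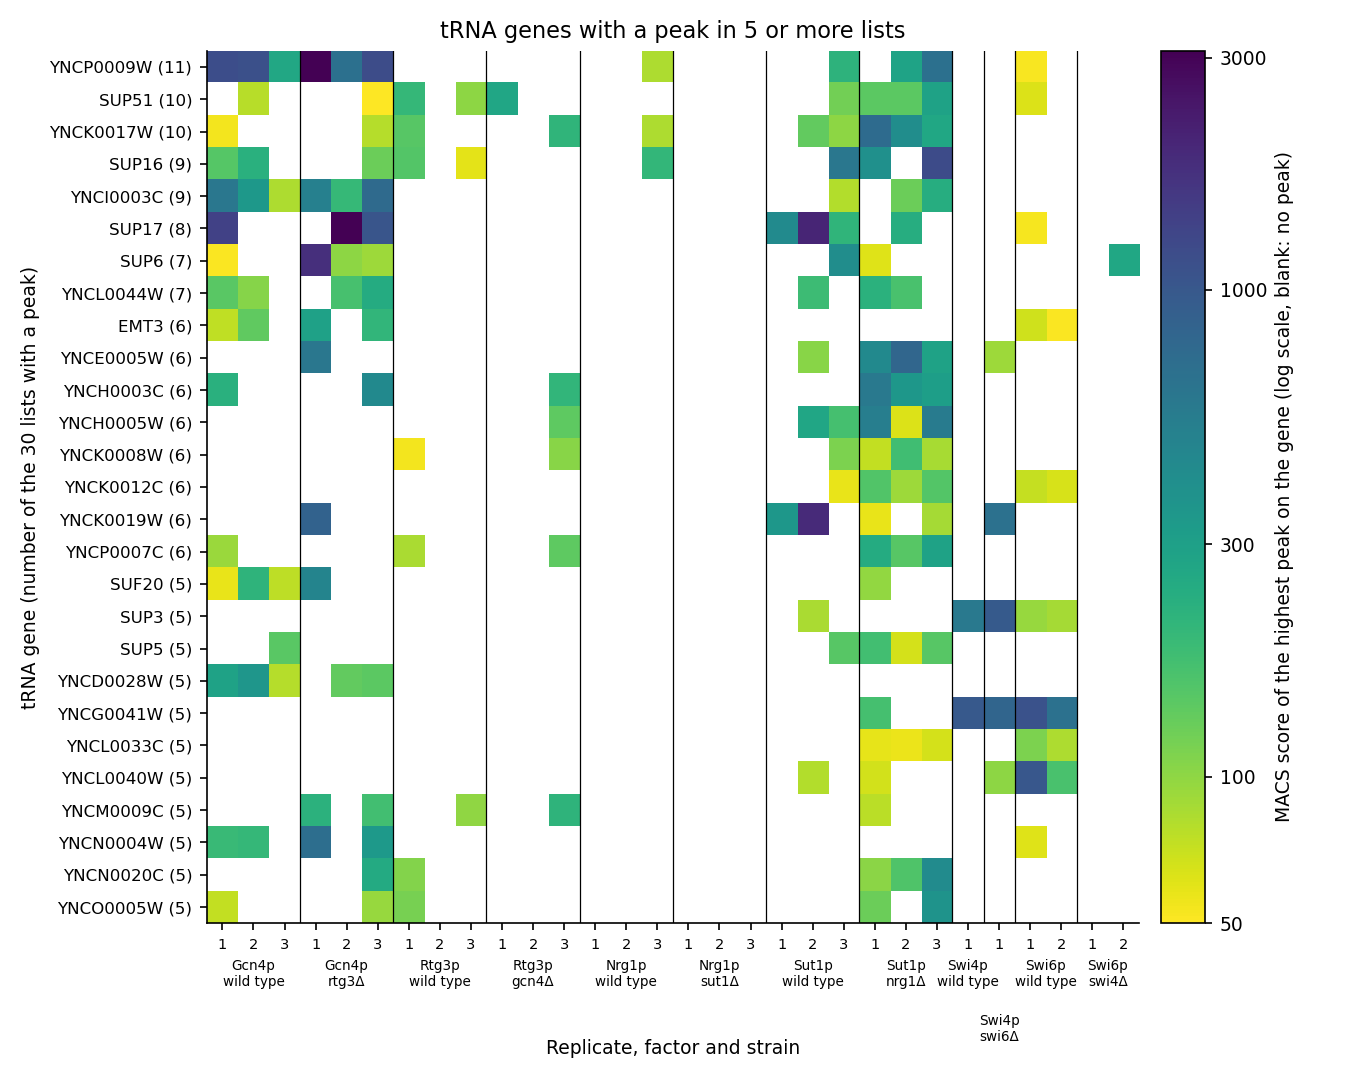
MACS score, on a logarithmic colour scale, of the highest peak on each of the 27 tRNA genes found in 5 or more of the 30 lists (rows, with the number of lists), in every IP (columns, by factor, strain and replicate); blank cells have no peak. YNCP0009W leads with 11 lists and 6 Gcn4p peaks, and SUP6 is the only gene with a Swi6p peak in swi4Δ.

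The overlap of Swi6p with Gcn4p, Rtg3p, Nrg1p and Sut1p at tRNA genes was set against the windows with Swi6p in both wild-type IPs. Of the 47 genes with Swi6p in both, 2 had a Gcn4p peak in wild type (4.26%, windows 12.2%) and 2 in rtg3Δ (4.26%, windows 10.6%). A Sut1p peak was at 6 in wild type (12.8%, windows 18.8%) and at 7 in nrg1Δ (14.9%, windows 24.6%). None had a peak of Rtg3p (windows 5.53% in wild type and 3.38% in gcn4Δ) or of Nrg1p (windows 3.19% in wild type and 4.7% in sut1Δ). Over the 81 genes with Swi6p in either IP, Sut1p in wild type was at 13 (16%), close to the 15.8% of windows. Of the 194 genes without Swi6p in either wild-type IP, 24 had Gcn4p in wild type and 24 in rtg3Δ, 11 Rtg3p in wild type, 23 Sut1p in wild type and 40 in nrg1Δ. Over all windows, a Gcn4p peak in any IP was on 12.7% in wild type and 9.53% in rtg3Δ. Rtg3p in wild type was on 5.35%, and Sut1p on 10.7% in wild type and 15.1% in nrg1Δ. Shares for windows without Swi6p were not computed, so the counts of the 194 have no matched background. The 2 of the 47 genes with Gcn4p in wild type were EMT3, at 74.09 and 137.7, and YNCP0022W, at 83.73.

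Other gene classes made the extent of Swi6p at tRNA genes comparable. In wild type the centre of 42 and 37 of the 75 snoRNA genes was under a Swi6p peak, a mean of 52.7% ± 4.71 (SD, n = 2), higher than tRNA genes in both IPs. Neighbouring snoRNA genes were each counted, among them SNR72 to SNR78, all with Swi6p in both IPs and with Swi4p in swi6Δ. The counts of snoRNA genes are thus not counts of separate peaks. snoRNAs guide the modification of ribosomal RNA and most are made by RNA polymerase II. Among the 139 cytoplasmic ribosomal protein genes the window before the start codon was covered in 57 and 37, a mean of 33.8% ± 10.2 (SD, n = 2). These genes were taken by symbol and include RPP1, for a subunit of RNase P and not a ribosomal protein. RPP1 had Swi6p in both wild-type IPs and Swi4p in wild type. All 6002 protein-coding genes stood at 4.97% ± 0.695 (SD, n = 2). In swi4Δ no snoRNA gene was covered. Swi4p in swi6Δ covered 26 snoRNA genes (34.7%) and 19 ribosomal protein genes (13.7%), against 1 and 3 in wild type, and the windows before all protein-coding starts were covered in 4.42% in swi6Δ and 1.83% in wild type, from lists of 182 and 73 peaks. Sut1p in nrg1Δ covered 23.6% ± 4.07 of snoRNA genes and 22.1% ± 3.55 of ribosomal protein genes (SD, n = 3), both above its 12% of tRNA genes. The windows before all protein-coding starts were covered in 12.4% ± 2.87 (SD, n = 3), close to the tRNA genes.

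Other genes made by RNA polymerase III were too few to be set against the tRNA genes. Of 11 such genes, which include the 5S rRNA, U6, SNR52, RPR1 and SCR1 RNAs, SNR52, which encodes a snoRNA, was the only one under Swi6p, in each of its wild-type IPs (9.09%). 6 of the 11 are copies of the 5S rRNA gene, and reads that lay wholly within identical copies would not have been kept. RDN5-1, a 5S rRNA gene in the repeated ribosomal DNA, was in 11 lists, with Gcn4p in 2 wild-type and 3 rtg3Δ IPs and Rtg3p in 3 wild-type and 3 gcn4Δ IPs, and because the 5S copies are nearly identical its peak is uncertain. RNA170 was in 3 lists, SNR52 in 3 and RPR1 in 1.

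Genes whose products charge or make tRNAs were compared with all protein-coding promoters. In the 600 bp promoters of 21 aminoacyl-tRNA synthetase genes Swi6p had 0 and 1 peaks in wild type, Gcn4p 3, 1 and 1 in wild type and 0, 5 and 3 in rtg3Δ, and Sut1p 0, 0 and 3 in wild type and none in nrg1Δ. VAS1, the valyl-tRNA synthetase gene, was in 7 lists, with Gcn4p in 3 wild-type and 2 rtg3Δ IPs. DED81, for asparaginyl-tRNA synthetase, and YHR020W, for a prolyl-tRNA synthetase, are neighbours that share a promoter and were in 3 lists each. Over all protein-coding promoters the means were 6.46% for Swi6p and 10.3% for Gcn4p in wild type and 8.56% for Gcn4p in rtg3Δ, and the synthetase genes stood at 2.38% ± 3.37 (SD, n = 2), 7.94% ± 5.5 and 12.7% ± 12 (SD, n = 3 each). For Sut1p all promoters stood at 6.94% in wild type and 15.4% in nrg1Δ, and the synthetase genes at 4.76% ± 8.25 and 0% (SD, n = 3 each). In the promoters of 12 genes for subunits of RNA polymerase III and its factors Swi6p had none in either IP, Gcn4p had a mean of 11.1% ± 4.81 in wild type and 8.33% in rtg3Δ, and Sut1p 2.78% ± 4.81 in wild type and 13.9% ± 4.81 in nrg1Δ (SD, n = 3 each). TFC6, for a TFIIIC subunit, had a Gcn4p peak in all 6 Gcn4p lists, and TFC4, for another, was in 4 Sut1p lists, 3 of them from nrg1Δ.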

How the data were processed

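Per the labels and the submitters' processing notes, reads of 42 bases from fragments of 200 to 600 bp were processed with CASAVA 1.8, aligned uniquely with Novoalign 2.07.0 to R64, and peaks were called in each IP against INPUT with MACS 1.4.0rc2. Gcn4p and Rtg3p had an INPUT for each IP, the other factors 1 for each strain. The deposited values are MACS scores of at least 50. The files hold no counts, so read depth and its precision are unknown and no count test was made.

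BED starts were made 1-based, and 21 starts below 1 were set to 1. tRNA genes came from the RefSeq R64 table, and amino acids from gene symbols. Overlap was computed for each IP beside 165109 windows of 73 bp, or the 38913 outside protein-coding genes (Python 3.11.15, NumPy 2.4.6, pandas 2.3.3), and tested on simulated data. The members and gene lists were chosen with earlier results of these data known.

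Genes named were the 10 in the most lists; for each factor up to 5, by mean score, that were in all wild-type lists or in all lists of a strain and absent from the other; any with Swi6p in swi4Δ; SUP16, from the study's lists, where 2 other tRNA names could not be matched; initiator and sole-copy genes; and the other listed genes in the most lists. Others were chosen after their values were seen. Alternatives were a score of at least 100, whole-gene overlap, a midpoint within 250 bp, equal numbers of peaks, genes outside promoters, leaving out each IP, and the replicate block.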

Additional observations from a re-analysis of the deposited data

How the results depend on the processing

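The change in the share of tRNA genes, deletion minus wild type, for Swi6p was −23.1 percentage points as reported, −11.3 with scores of at least 100, −13.8 with the midpoint within 250 bp, −25.8 for genes outside promoters, and −21.3 with tRNA genes under 1000 bp apart counted once (chosen after seeing the data). With 3 peaks in every list it was 0.182, the opposite sign, from the SUP6 peak in 1 swi4Δ IP alone. Lists of 3 peaks are too short to compare the strains. For Sut1p the change was 6.91, and 2.06 with the midpoint rule and 0.97 with equal numbers of peaks. For Swi4p it was 5.45, and 1.45 and 0 under the same settings. The number of tRNA genes with 3 or more factors in wild type was 7, and 0 with a peak required in every IP, 1 with scores of at least 100, 1 with the midpoint rule and 2 outside promoters. Demanding that the peak cover the whole gene moved no change by more than the spread between replicates, and gave 5.82 for Swi4p, which has no replicates. Leaving out 1 IP at a time gave −23.8 to −22.4 for Swi6p, 4.91 to 8.55 for Sut1p, −1.64 to 1.82 for Gcn4p, −1.7 to 0.121 for Rtg3p, −0.727 to 0 for Nrg1p, where the value rested on wild-type IP 3 alone, and 5 to 7 for the genes with 3 or more factors. The sign for Gcn4p and Rtg3p thus turned with the IP left out.

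With the replicate number as a block, the mean difference between IPs of the same number was 0 for Gcn4p, −0.727 for Rtg3p, −0.485 for Nrg1p, 6.91 for Sut1p and −23.1 for Swi6p, the same as without the pairing, and Swi4p has 1 IP a strain. Nothing in the labels says that a number marks a shared culture across strains. Windows outside protein-coding genes gave a higher background than all windows for every factor and strain but Gcn4p in wild type (6.51% against 7.18%). It was 6.17% for Gcn4p in rtg3Δ, 2.98% and 1.32% for Rtg3p and 0.615% and 1.2% for Nrg1p, wild type first. Sut1p stood at 6.92% and 13%, Swi4p at 2.39% and 6.07%, and Swi6p at 6.71% and 0.181%. The mean share of tRNA genes was above this background for Swi6p in wild type (23.3%) and Swi4p in swi6Δ (7.27%). It was 0.182% for Swi6p in swi4Δ, and below the background in all other cases, as for Sut1p in wild type (5.09%). The alternative with only tRNA genes that have no identical copy was not run, since their sequences were not used here. Peak lists give no depth, so a gene without a peak is not shown to be unbound, and the causes of these differences were not tested.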
